A study of Mus musculus with 2 samples.

Results

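The cells described here are 199 endothelial barcodes of the *Maf* LSEC-KO library that held at least 5 unique molecular identifiers (UMIs, each marking 1 captured mRNA molecule) of *Maf*, the gene deleted in these mice. They made up 6.70% (95% interval 5.83 to 7.66) of the 2969 endothelial barcodes of that library and 199 of the 12755 barcodes of the series. An endothelial barcode had at least 1500 UMIs and 750 genes, at least 2 UMIs summed over *Pecam1*, *Cdh5* and *Ptprb*, and no UMI of *Ptprc*, *Adgre1*, *Cd79a*, *Dcn* or *Vwf*. These *Maf*-positive LSECs were set beside 2337 barcodes of the same library and gate without any *Maf* UMI (*Maf*-negative LSECs) and beside the 4157 barcodes of the control library that passed the same gate (control LSECs). A further 433 barcodes of the *Maf* LSEC-KO library held 1 to 4 *Maf* UMIs and belonged to neither group. Since *Maf* UMIs chose the groups, the difference in *Maf* between them is not a result. In 15 leukocyte barcodes of this library, whose *Maf* UMIs can be their own, free RNA or those of doublets, *Maf* was at 82.3 CPM (33.1 to 169). The UMIs of all other genes come from the same barcodes as the rule, so they are given as a description, without a test.

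The study deleted *Maf* in liver sinusoidal endothelial cells (LSECs) and compared them with LSECs of control mice. *Maf* LSEC-KO mice carried 2 floxed *Maf* alleles and a transgene in which the *Clec4g* promoter, active in LSECs, drives the recombinase iCre. Control mice are labelled wild type, and the paper describes them as littermates without the transgene that carried 1 or 2 floxed alleles. Endothelial cells of 3 pooled mice per condition were enriched with magnetic beads against CD146 and measured as 1 droplet library of 3′ scRNA-seq each. The labels do not say which mouse a barcode came from, and 1 library per condition leaves no replicate check. Whether the *Maf* alleles of a given barcode had been recombined was not measured.

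LSECs line the liver sinusoids. They are fenestrated, lack an organised basement membrane, and clear macromolecules from the blood through scavenger receptors. c-Maf, the product of *Maf*, is a basic leucine zipper transcription factor that is abundant in adult LSECs. Loss of the sinusoidal programme in favour of genes of continuous capillaries is known as capillarization.

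The deposited counts held 47681895 UMIs in 5664 control barcodes and 89872764 UMIs in 7091 *Maf* LSEC-KO barcodes. The 199 *Maf*-positive LSECs held between 1659 and 103948 UMIs (median 9928), the *Maf*-negative LSECs a median of 13636 and the control LSECs a median of 8491. The median share of UMIs from ribosomal protein genes was 8.92% in *Maf*-positive, 17.6% in *Maf*-negative and 7.20% in control LSECs. These genes and mitochondrial genes were therefore left out of the divisor of all levels, which are in CPM, the summed UMIs of a gene scaled by this divisor. Intervals are given at 95%, from the exact Poisson distribution for levels and their ratios and by the Clopper-Pearson method for shares, and they cover counting error only. The libraries shared 10 barcode sequences, 1 of them among the *Maf*-positive LSECs, and its namesake in the control library did not pass the gate.

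Most but not all *Maf*-positive barcodes carried the markers of LSECs. Of 8 LSEC markers at or above 50 CPM besides *Maf*, 5 were at least 2-fold higher than in *Maf*-negative LSECs, against 3.85% of all genes at that level. None was 2-fold lower, and none differed 2-fold from control LSECs. A set of 9 barcodes, however, held between 31 and 878 UMIs (median 161) of the lymphatic endothelial genes *Mmrn1*, *Ccl21a* and *Pdpn*, against at most 1 UMI in each of the other 190. In these 9 barcodes the chemokine gene *Ccl21a* reached 14490 CPM and the lymphatic transcription factor gene *Prox1* 766 CPM, while *Dnase1l3* and *Fcgr2b* had 0 UMIs (a count of 0 allows up to 29.5 CPM) and *Clec4g* was at 58.9 CPM. The label LSEC therefore goes against the markers of these 9 barcodes, and values are also given for the 190 without them. Only 2 more of the 2969 endothelial barcodes of this library, 1 of them without a *Maf* UMI, and no control barcode held 3 or more UMIs of these genes. A further 4 *Maf*-positive barcodes held at least 20 UMIs of the markers of another cell type, large-vessel endothelium not counted. In 3 of them these were macrophage genes, up to 151 UMIs in a barcode of 3764 UMIs. The other held 72280 UMIs, among them 887 cholangiocyte UMIs, which were 98.2% of all cholangiocyte UMIs in the group, together with 217 hepatocyte UMIs. It was also 1 of 10 *Maf*-positive barcodes (5.03%) with at least 20 UMIs of 8 large-vessel markers, none of them a lymphatic-marker barcode, and held 422 of these UMIs. In *Maf*-negative LSECs 8.39% and in control LSECs 1.08% of barcodes held as many. The summed level of these markers was 683, 688 and 412 CPM, with 1 of the 8 at 0 UMIs in *Maf*-positive LSECs. Most of it came from *Efnb1* (274, 294 and 230 CPM), *Clu* (243, 282 and 45.6) and *Gja4* (117, 92.0 and 95.8). *Gja5*, *Sema3g* and *Bmx* were at 5.74, 0.478 and 9.57 CPM in *Maf*-positive LSECs. These UMIs alone therefore do not show that a barcode was a large-vessel cell.

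Most *Maf*-positive LSECs resembled control LSECs more than their *Maf*-negative neighbours of the same library. This was measured with gene sets in which *Maf*-positive LSECs had no part, namely 275 genes at least 2-fold higher in control than in *Maf*-negative LSECs and 409 genes at least 2-fold higher in *Maf*-negative LSECs. The share of control-high UMIs among the UMIs of both sets had a median of 76.1% in control and 25.8% in *Maf*-negative LSECs, as the choice of genes required. Among the 190 *Maf*-positive LSECs without lymphatic markers it ranged from 22.0% to 84.1%, with a median of 65.2%. In 149 of them (78.4%, 71.9 to 84.0) the share lay above 51.9%, the limit below which 2.5% of control LSECs fell. In 21 (11.1%, 6.97 to 16.4) it lay below 43.0%, the limit above which 2.5% of *Maf*-negative LSECs fell, and in 20 (10.5%) it lay between both limits. For comparison, 4 *Maf*-negative LSECs were in the control range and 45 control LSECs in the *Maf*-negative range. When every barcode was thinned to 2700 UMIs, the medians were 65.8% (185 *Maf*-positive barcodes, 5 too shallow), 25.5% and 76.3%.

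**Figure D1:**
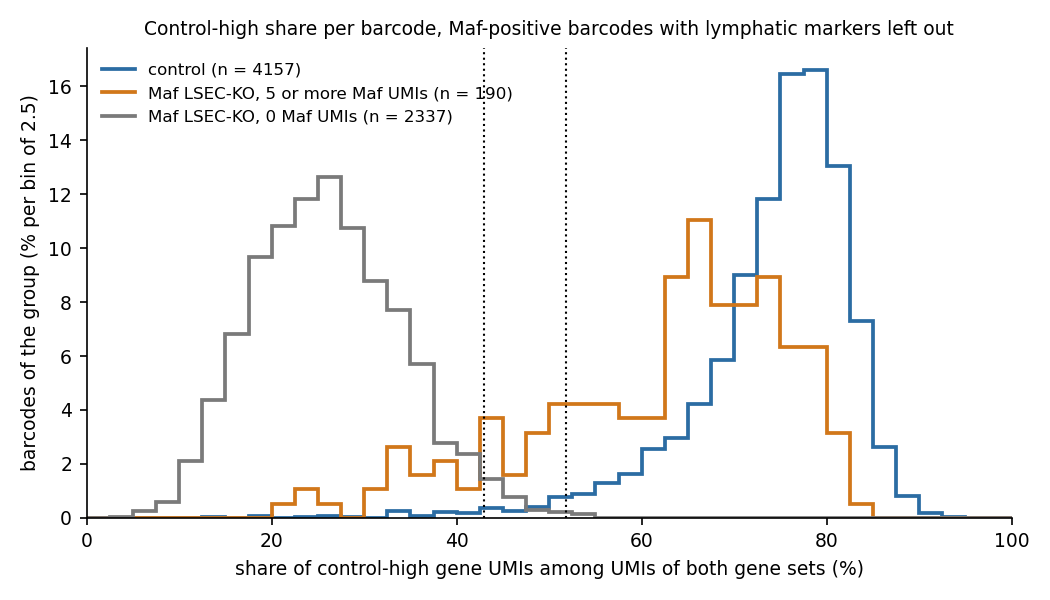
Distribution of the share of control-high UMIs per barcode (x axis, %) as the percentage of barcodes of each group in bins of 2.5 (y axis), for control LSECs, 190 *Maf*-positive LSECs and *Maf*-negative LSECs. The dotted lines are the limits at 43.0% and 51.9%; most *Maf*-positive LSECs lie to the right of both, below the peak of the control group, and a tail reaches into the *Maf*-negative peak.

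Barcodes in the 3 classes differed in depth. The median UMI number was 8799 in the control range, 14416 between the limits and 15638 in the *Maf*-negative range, and the median Scrublet score, which estimates how closely a barcode resembles a mixture of 2 cells, was 0.0287, 0.0819 and 0.100. Of the barcodes with the highest Scrublet scores of the library, 6 of 149, 5 of 20 and 4 of 21 fell in these classes. Without the 13 barcodes with lymphatic markers or markers of non-endothelial cells, 147 of 186 barcodes (79.0%) were in the control range. The 10 barcodes with large-vessel markers had a median depth of 21459 UMIs, and 3 were in the control range, 2 between the limits and 5 in the *Maf*-negative range. The summed level of these markers was 496 CPM in the control range, 445 between the limits and 1522 in the *Maf*-negative range, where the barcode with cholangiocyte UMIs held 422 of 608 of these UMIs and the level without it was 547 CPM (472 to 632). With these barcodes left out too, 144 of 177 (81.4%) were in the control range. The part of doublets in the barcodes outside the control range was not tested.

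The share of control-high UMIs was higher at higher *Maf* counts within the *Maf* LSEC-KO library. Its median was 25.8% at 0 *Maf* UMIs (2336 barcodes), 26.2% at 1 (308), 29.4% at 2 to 4 (124), 56.1% at 5 to 9 (41), 64.9% at 10 to 19 (68) and 69.5% at 20 or more (81), lymphatic-marker barcodes left out. The control range held 63.4%, 70.6% and 92.6% of the barcodes in the last 3 bins. In the control library the median share was 58.6% even in the 26 LSECs without a *Maf* UMI, whose median depth was 2742 UMIs. Near the limit of the rule, 15 barcodes with 5 or 6 *Maf* UMIs had a median share of 49.5% and 645 CPM of *Dnase1l3*, and 46 barcodes with 3 or 4 *Maf* UMIs had a median share of 32.6% and 270 CPM. Among those 46 just outside the rule, 16 were in the control range. A fixed number of UMIs is a lower bar for deep barcodes, and the median depth was 5930 UMIs at 5 to 9 *Maf* UMIs and 11965 at 20 or more.

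**Figure D2:**
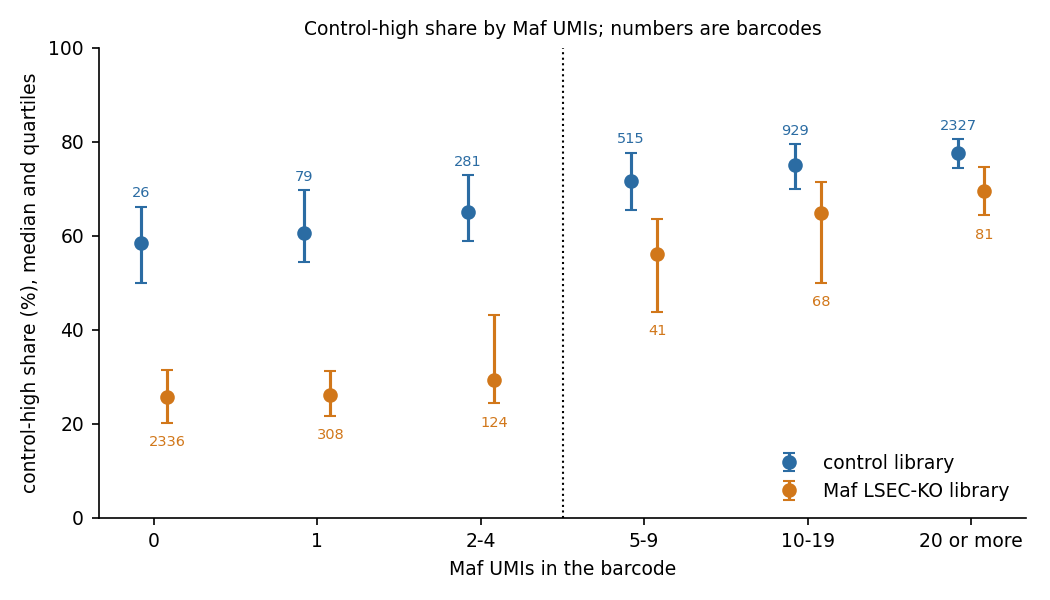
Median share of control-high UMIs (y axis, %, with quartiles as bars) in barcodes grouped by their number of *Maf* UMIs (x axis), in the control and the *Maf* LSEC-KO library, with the number of barcodes beside each point. The dotted line is the limit of 5 *Maf* UMIs; the *Maf* LSEC-KO medians lie between 25.8% and 29.4% left of it and between 56.1% and 69.5% right of it, and the control medians between 58.6% and 77.6%.

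Across all genes of at least 50 CPM in either group, 175 of 4545 were at least 2-fold higher in *Maf*-positive than in *Maf*-negative LSECs (3.85%) and 148 at least 2-fold lower (3.26%). Against control LSECs, 73 of 4246 genes were at least 2-fold higher (1.72%) and 25 at least 2-fold lower (0.589%). For the 190 without lymphatic markers, 164 genes were higher (3.61%) and 164 lower (3.61%) than in *Maf*-negative LSECs, and 60 were higher (1.42%) and 25 lower (0.59%) than in control LSECs. With the barcodes left out that carried lymphatic, large-vessel or non-endothelial markers (177 left), 196 genes were higher and 231 lower than in *Maf*-negative LSECs. Against control LSECs, 43 were then higher and 23 lower. Here and below, barcodes with such markers were left out of the *Maf*-positive group only, and both comparison groups kept theirs. Both comparisons use the same *Maf*-positive barcodes. The median log2 ratio of all genes was −0.04 and 0.07. With the UMIs of all genes as the divisor, 212 genes were higher and 73 lower than in *Maf*-negative LSECs. With median-of-ratios factors, 47 were higher and 44 lower than in control LSECs. Of the 275 control-high genes, 170 were 2-fold higher than in *Maf*-negative LSECs, none was 2-fold higher than in control LSECs and 19 were lower, with a median log2 ratio to control of −0.40. Of the 409 *Maf*-negative-high genes, 98 were still 2-fold higher than in control LSECs, with a median log2 ratio of 0.67.

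By their medians, scavenger and endocytic receptors lay above *Maf*-negative and below control LSECs. Of 15 such genes at 50 CPM or more, 8 were at least 2-fold higher than in *Maf*-negative LSECs (3.85% of all genes were) and none lower (median log2 ratio 1.13). None differed 2-fold from control (median −0.44), and few of all genes did (1.72% higher, 0.589% lower). Summed over the list, the level was 15697 CPM in *Maf*-positive, 8171 in *Maf*-negative and 20257 in control LSECs. *Stab2*, a receptor for hyaluronan and other waste molecules, had between 0 and 32 UMIs per *Maf*-positive barcode (median 9), against a median of 0 in *Maf*-negative and 11 in control barcodes. Its summed level was 1039 CPM (996 to 1084) against 122 and 1623. *Fcgr2b*, the Fc receptor that clears immune complexes, was at 1421 CPM against 155 in *Maf*-negative and 2498 in control LSECs, a log2 ratio of 3.20 and −0.81. The mannose receptor gene *Mrc1* was at 1732, 659 and 2557 CPM in the same order, and the scavenger receptor gene *Msr1* at 273, 83.7 and 370. *Dab2*, an adaptor for clathrin-mediated uptake, was at 787, 214 and 1065, and *Mertk*, a receptor for the uptake of dying cells, at 253, 70.0 and 345. The groups overlapped barcode by barcode for all of these genes, since each was at 0 UMIs in at least 1 barcode of every group.

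*Lyve1* stood apart from this pattern by lying above control, while *Clec4g* lay between both groups. *Lyve1*, a hyaluronan receptor, was at 1038 CPM in *Maf*-positive, 344 in *Maf*-negative and 715 in control LSECs, and at 945 in the 190 without lymphatic markers, so that it was above control (log2 ratio 0.54, 0.47 to 0.60, in all 199 and 0.40, 0.33 to 0.47, in the 190). *Clec4g*, the lectin gene whose promoter drives iCre, had a median of 18 UMIs per *Maf*-positive barcode, 13 per *Maf*-negative and 21 per control barcode. Its level was 2066 CPM against 1465 and 3024, so that neither log2 ratio (0.50 and −0.55) passed 2-fold.

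Genes of secreted and surface proteins of sinusoids were also higher than in *Maf*-negative LSECs. Of 19 genes, 11 were at least 2-fold higher than in *Maf*-negative LSECs (3.85% of all genes were) and none lower (median log2 ratio 1.29). Against control LSECs 1 of 22, *Enpp6*, was 2-fold lower (median −0.52), as were 0.589% of all genes. *Dnase1l3* encodes a secreted nuclease that degrades chromatin in blood. It had between 0 and 75 UMIs per *Maf*-positive barcode (median 18), between 0 and 7 per *Maf*-negative barcode (median 0) and between 0 and 286 per control barcode (median 26). The levels were 1918 CPM (1859 to 1978), 7.58 (6.60 to 8.68) and 3608 (3588 to 3628), which is a log2 ratio of 7.98 to *Maf*-negative and −0.91 to control LSECs. *Tcn2*, for a carrier of vitamin B12, was at 383, 26.3 and 689 CPM, and *Dpp4*, for a surface peptidase, at 464, 59.0 and 833. *Aass*, for an enzyme of lysine breakdown, was at 156, 12.7 and 293 CPM, and *Gas6*, for a ligand of *Mertk*, at 259, 52.1 and 369. Other genes of the list lay close together in all groups, such as *Oit3* (1415, 1347 and 1441 CPM) and the VEGF receptor gene *Kdr* (3101, 2607 and 3426). *Bmp2*, an LSEC signal in iron metabolism, was at 1227, 1079 and 1935 CPM and thus nearer to *Maf*-negative LSECs.

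**Figure D3:**
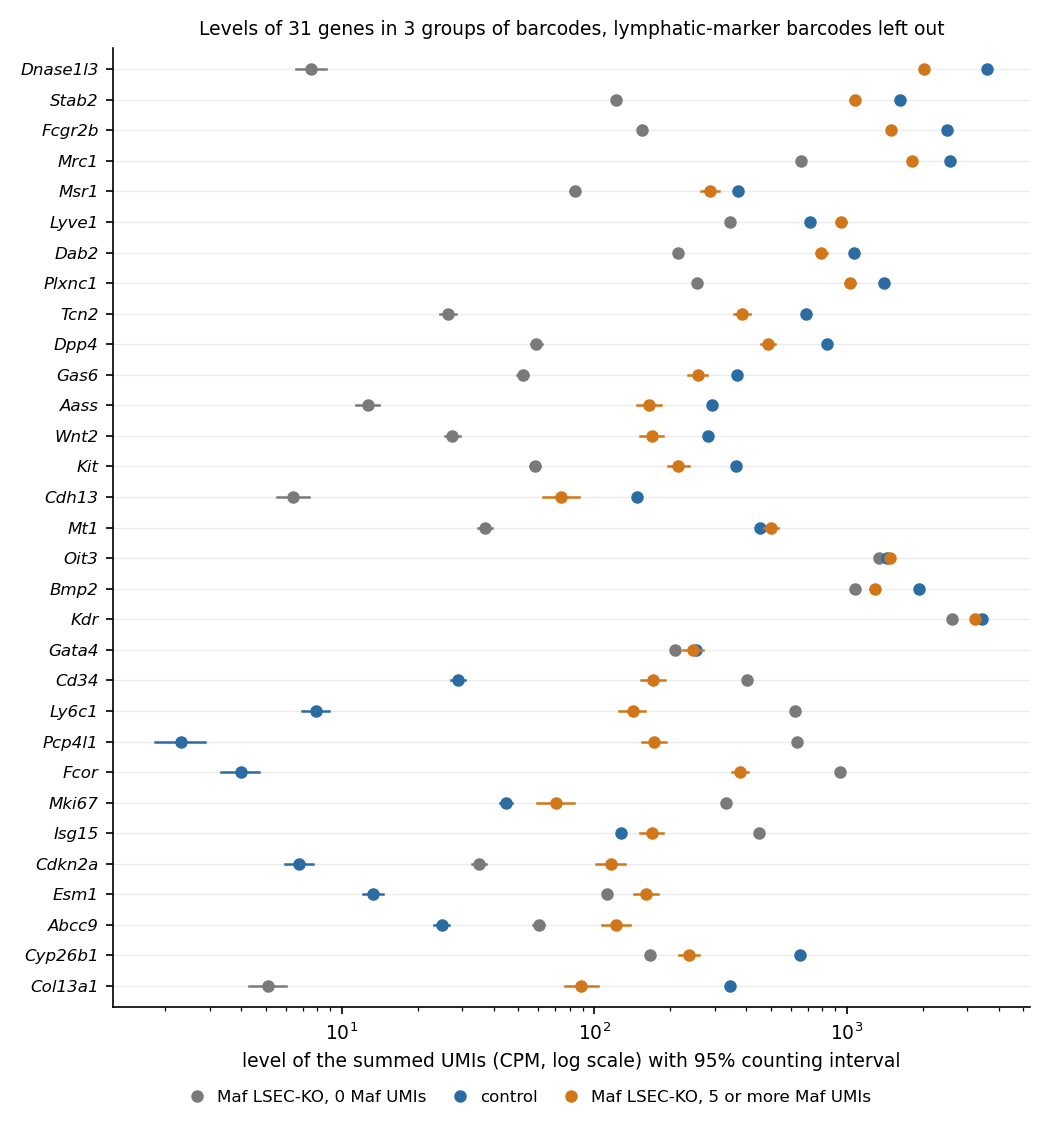
Levels of 31 genes (x axis, CPM of summed UMIs, log scale, with 95% counting intervals as lines) in 190 *Maf*-positive, 2337 *Maf*-negative and 4157 control LSECs, lymphatic-marker barcodes left out of the *Maf*-positive group. For *Dnase1l3* the *Maf*-positive point lies near the control point and far from the *Maf*-negative point, for *Oit3* and *Gata4* the 3 points lie close together, and for *Ly6c1* and *Pcp4l1* the *Maf*-positive point lies between the others.

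Other genes among the 15 highest ratios to *Maf*-negative LSECs, in the 199 barcodes or in the 190 without lymphatic markers, had varied roles. *Mt1* and *Mt2* encode metallothioneins, which bind zinc and copper. *Mt1* was at 476 CPM in *Maf*-positive, 36.9 in *Maf*-negative and 451 in control LSECs, and *Mt2* at 100 (87.3 to 115), 3.90 and 90.9. The prostaglandin transporter gene *Slco2a1* was at 242, 11.0 and 344 CPM, and the zinc and manganese transporter gene *Slc39a8* at 153, 9.66 and 221. *Npl*, for an enzyme that breaks down sialic acid, was at 72.7, 2.68 and 86.7 CPM, and *C5ar2*, for a receptor of complement fragment C5a, at 131, 8.30 and 170. *Lgmn*, which encodes a lysosomal protease, was at 355, 31.9 and 510. Besides *Dnase1l3*, 6 genes ranked above *Npl*, and the 9 lymphatic-marker barcodes held 1475 of 1477 UMIs of *Ccl21a*, 441 of 442 of *Mmrn1*, 203 of 203 of *Fgl2*, 215 of 217 of *Prss23*, 109 of 113 of *Lcn2* and 63 of 108 of *Sema3d*.

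Maf proteins bind DNA elements with the core TGCTGA, so the promoters of the higher genes were searched for it as a description of sequence. RefSeq promoters (250 bases before to 50 after the start, GRCm38.p6) were matched for 132 of the 175 genes, 181 promoters in all. TGCTGA or its reverse complement occurred in 26 of these 181 (14.4%, 9.60 to 20.3), in 16.1% of all 32851 promoters, in 11.5% of 4414 promoters of genes within 2-fold and in 12 of 130 promoters of the lower genes (9.23%, 4.86 to 15.6). The core with the AP-1 element, TGACTCA, occurred in 4.97%, 4.46%, 3.01% and 3.08%. Windows around a match are shown for *Mt2* and *Dab2*, 2 of the genes described, with the motif in capitals, read on the strand of the gene. They lie on chr8:94172372-94172397 (plus strand, TGCTGA on the opposite strand), chr8:94172529-94172555 (plus strand, TGACTCA) and chr15:6299679-6299704 (plus strand, TGCTGA).
Mt2 window with TGCTGA: gtctcgtcgcTCAGCAtcgcctctgc
Mt2 window with TGACTCA: aaagggggtgTGACTCAgcgcgggggg
Dab2 window with TGCTGA: atggtaatttTGCTGAtgtgatgaag

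The counts of transcription factor genes past 2-fold were too small to set them apart from all genes. Of 19 measured, 2 were at least 2-fold higher than in *Maf*-negative LSECs, against 3.85% of all genes. Against control LSECs 1 was 2-fold higher, against 1.72% of all genes, and none was 2-fold lower in either comparison. The lymphatic gene *Prox1* was the 1 higher than in both, with 78 of its 113 UMIs in the lymphatic-marker barcodes, without which it was at 17.6 CPM and under the level minimum. Without them *Irf8*, for an interferon regulatory factor, was the 1 factor 2-fold above control (147 CPM against 71.4, log2 ratio 1.05, and 0.99 in all 199). *Tfec*, for a factor of the MiT family, was at 66.5 CPM against 25 in *Maf*-negative and 77.5 in control LSECs. *Gata4*, for the zinc finger factor of LSEC identity, was at 236, 209 and 252 CPM in *Maf*-positive, *Maf*-negative and control LSECs. Of the *Maf* family and its partners, 4 genes were at 50 CPM or more, and 1 was at least 2-fold from *Maf*-negative LSECs. That gene, *Mafg*, encodes a small Maf protein that lacks a transactivation domain, and it was at 130, 51.6 and 134 CPM.

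Genes of the pericentral end of the sinusoid were higher than in *Maf*-negative LSECs, though below control. All 4 genes measured were at least 2-fold higher (median log2 ratio 2.21), against 3.85% of all genes. *Wnt2* and *Cdh13* reached 50 CPM in *Maf*-positive but not in *Maf*-negative LSECs, so the minimum itself favoured a higher ratio. *Rspo3*, an enhancer of Wnt signals, reached it in neither and was not counted there. Of 5 genes measured against control, 1 was 2-fold lower (median −0.82), against 0.589% of all genes. That gene was *Rspo3*, at 23.4, 7.87 and 73.2 CPM, with 44.9% of its *Maf*-positive UMIs in 1 barcode. Without the lymphatic-marker barcodes *Rspo3* was at 15.6 CPM (log2 ratio to control −2.23), and *Cdh13* was 2-fold lower than in control LSECs as well (73.9 CPM, and a log2 ratio of −0.97 in all 199). *Wnt2*, a signal that sets the pericentral programme of hepatocytes, was at 166 CPM (149 to 184) in *Maf*-positive, 27.4 in *Maf*-negative and 282 in control LSECs. The stem cell factor receptor gene *Kit* was at 206, 58.3 and 364 CPM and *Cdh13*, for T-cadherin, at 75.6, 6.44 and 148. With barcodes that held *Vwf* kept, the log2 ratio of *Cdh13* to *Maf*-negative LSECs fell from 3.55 to 1.39. Of 7 periportal genes, 3 were at least 2-fold higher than in *Maf*-negative LSECs (median 0.01), against 3.85% of all genes. Against control LSECs 1 was 2-fold higher (median 0.23), as were 1.72% of all genes. The 3 were *Msr1*, *Ntn4* and *Adam23*, of which *Ntn4*, for netrin 4, was at 354, 139 and 301 CPM. The adhesion receptor gene *Adgrg6* was the 1 above control, at 71.8, 120 and 26.3.

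Among continuous capillary genes, some lay between both groups. Summed over the list, the level was 14626 CPM in *Maf*-positive, 18965 in *Maf*-negative and 14429 in control LSECs. Without the lymphatic-marker barcodes it was 14421 CPM, about the control level. Of 19 genes, 4 were at least 2-fold lower and 1 higher than in *Maf*-negative LSECs (median log2 ratio −0.42). Against control LSECs 3 were at least 2-fold higher (median 0.24). The shares over all genes were 3.26%, 3.85% and 1.72%. The 4 lower genes were *Cd34*, *Ly6c1*, *Ly6a* and *Fabp5*, the higher one was the tight junction gene *Cldn5* (723, 302 and 777 CPM), and the 3 above control were *Cd34*, *Ly6c1* and *Cav1*. Without the lymphatic-marker barcodes *Cav1*, for the coat protein of caveolae, fell from 86.1 to 50.3 CPM and was no longer 2-fold above control (log2 ratio 0.25) but 2-fold below *Maf*-negative LSECs (−1.22), and *Fabp5* was at −0.96 to *Maf*-negative LSECs. *Cd34*, a sialomucin of continuous endothelium, was at 164 CPM (147 to 182) against 402 in *Maf*-negative and 28.8 in control LSECs. *Ly6c1*, a surface antigen of capillaries, was at 136, 627 and 7.91 CPM and *Pcp4l1*, which was highest in *Maf*-negative LSECs, at 175, 635 and 2.30. At a common depth of 2700 UMIs, 15.7% of 185 *Maf*-positive barcodes held a *Ly6c1* UMI, against 53.0% of *Maf*-negative and 1.06% of control barcodes. In the control range 9 of 146 *Maf*-positive barcodes (6.16%, 2.86 to 11.4) held one, and the summed level of the 149 barcodes of that range was 63.7 CPM. Of 15 leukocyte barcodes of the *Maf* LSEC-KO library, thinned in the same way, 1 did (6.67%, 0.169 to 31.9), too few to set a background. *Ly6a*, another surface antigen of the same family, was at 1483, 3718 and 1088 CPM and thus nearer to control.

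Some genes of tip cells and of profibrotic signals were at least 2-fold above control. Of 9 tip-cell genes, 1 was at least 2-fold higher and 2 were lower than in *Maf*-negative LSECs, and 2 of 8 were higher than in control LSECs (medians −0.16 and 0.67). The higher one was *Nrp2*, a co-receptor for VEGF and semaphorins, at a log2 ratio of 1.01, which was 0.90 without the lymphatic-marker barcodes. Of 7 profibrotic factors, 1 was higher and 2 were lower than in *Maf*-negative LSECs (median −0.78). Against control LSECs 3 of 6 were higher (median 1.64, and 1.03 without the lymphatic-marker barcodes), namely *Pdgfb*, *Igfbp5* and *Esm1*. For comparison with both lists, 3.85% of all genes were higher and 3.26% lower than in *Maf*-negative LSECs, and 1.72% were higher than in control. *Pdgfb*, a growth factor gene for pericytes and stellate cells, was at 70.3 CPM in *Maf*-positive, 141 in *Maf*-negative and 14.1 in control LSECs. *Igfbp5*, for a binding protein of insulin-like growth factors, was at 171, 46.5 and 26, but 241 of its 357 UMIs were in the lymphatic-marker barcodes, without which it was at 58.3 CPM and no longer 2-fold above *Maf*-negative LSECs. *Ccn1*, a matricellular signal, was then 2-fold below them (−1.11, and −0.98 in all 199). In the 177 barcodes without lymphatic, large-vessel or non-endothelial markers *Igfbp5* was below both groups (log2 ratio −1.48 and −0.64). Those groups kept their barcodes with such markers, so this is not a comparison of like with like. None of 8 basement membrane genes passed 2-fold in either comparison (medians −0.29 and 0.47), nor did any of 5 genes of the Notch pathway (−0.17 and 0.31). Of the genes of antigen presentation and immune surface proteins, 1 of 7 was higher than in *Maf*-negative LSECs, against 3.85% of all genes. It was the cytokine receptor gene *Il6st* (1171, 475 and 1638 CPM), and none of 8 differed 2-fold from control.

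Cell cycle genes were lower than in *Maf*-negative LSECs. Of 10 genes of G2 and mitosis, all 10 were at least 2-fold lower (median log2 ratio −1.83), against 3.26% of all genes. So were 5 of 11 genes of S phase (median −0.83), namely *Mcm5*, *Mcm7*, *Rrm2*, *Tyms* and *Uhrf1*. Most genes of both lists reached 50 CPM only in *Maf*-negative LSECs, so the minimum itself favoured a lower ratio. None was 2-fold from control LSECs, with 3 and 4 genes measured. The proliferation marker *Mki67* was at 67.0 CPM in *Maf*-positive, 333 in *Maf*-negative and 44.7 in control LSECs, and *Top2a*, for the topoisomerase of mitotic chromosomes, at 65.5, 283 and 39.2. At 2700 UMIs per barcode, 3.78% (1.53 to 7.64) of *Maf*-positive, 18.7% of *Maf*-negative and 1.92% of control barcodes held at least 2 UMIs of the G2 and mitosis genes, and without thinning 21.6%, 38.5% and 4.52%. The deepest *Maf*-positive barcode, with 103948 UMIs, 10 of *Maf* and a control-high share of 23.2%, held 33.0% of all these UMIs in the group. Without it the median log2 ratio of the list was −2.40. The 21 barcodes of the *Maf*-negative range held 645 of the 815 UMIs of these genes, and the 149 of the control range held 136. In the control range the median log2 ratio to *Maf*-negative LSECs was −3.88, though the control-high share chose these classes.

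Growth, interferon and stress genes followed different patterns. *Myc* was at 32.5 CPM in *Maf*-positive, 76.4 in *Maf*-negative and 4.63 in control LSECs. The cyclin gene *Ccnd1* was at 1523, 1412 and 707 CPM, so that *Maf*-positive LSECs were at the level of the *Maf*-negative ones, and *Ccnd2* was at 1083, 408 and 795. Of 13 interferon-stimulated genes, 4 were at least 2-fold lower than in *Maf*-negative LSECs (median −0.56), against 3.26% of all genes. They were *Ifit3*, *Irf7*, *Isg15* and *Cxcl10* (*Ifit3* at −0.99 and *Cxcl10* at −0.91 in the 177 barcodes). None of the 13 was 2-fold from control (median 0.06). *Isg15*, for a ubiquitin-like protein, was at 175, 450 and 128 CPM. Of 12 immediate early and heat shock genes, 5 were at least 2-fold higher than in control LSECs (median 0.90), against 1.72% of all genes. Against *Maf*-negative LSECs 1 of 13, *Fosb*, was 2-fold lower (median −0.57), against 3.26% of all genes. *Jun* was 2-fold lower there without the lymphatic-marker barcodes (−1.01, and −0.97 in all 199). The 5 were *Junb*, *Egr1*, *Hspa1a*, *Hspa1b* and *Hsph1*, with log2 ratios to control between 1.03 and 1.31, and in the 177 barcodes *Junb* was at 0.76 and *Hspa1a* and *Hspa1b* at 0.98 each. Such genes also respond to tissue digestion, and the libraries were digested separately, so genotype and handling cannot be told apart here. Haemoglobin genes, such as *Hbb-bs* at 2.39 CPM against 12.5 and 622, were lower than in control LSECs, and 29.1% of the haemoglobin UMIs of control LSECs were in 1 barcode.

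The 149 *Maf*-positive LSECs of the control range still differed from control LSECs in a small number of genes. As the control-high share chose them, genes of both sets had to lie nearer to control in them than in the other *Maf*-positive LSECs. At least 2-fold higher were 39 of 4190 genes (0.931%) and 21 were 2-fold lower (0.501%). *Cdkn2a*, which encodes the cell cycle inhibitors p16 and p19, was at 132 CPM in these 149 barcodes and at 6.79 in control LSECs, a log2 ratio of 4.28 (3.99 to 4.57). *Esm1*, a secreted proteoglycan of tip cells, had a log2 ratio of 3.37, *Depp1*, a regulator of autophagy, of 3.21, and *Cd63*, for a tetraspanin of endosomes, of 2.13. *Abcc9*, a subunit of ATP-sensitive potassium channels, had a log2 ratio of 2.16 and the calcium channel gene *Cacna1a* of 1.49. *Mest*, an imprinted gene, was 1.68 above control and *Ccnd1* 1.08 above control on the log2 scale. These genes were also higher in *Maf*-negative than in control LSECs, except *Cacna1a*, which was at 49.9 CPM in both. On the lower side were *Col13a1*, for a transmembrane collagen (log2 ratio −1.59), *Cyp26b1*, for an enzyme that degrades retinoic acid (−1.48), *Enpp6*, for a choline phosphodiesterase (−1.64), and *Olfm1* (−1.36). These were lower in *Maf*-negative LSECs than in control LSECs as well. *Plac8* (−1.57) and *Pim1* (−1.35) were also lower in the 149 barcodes than in control LSECs (62.3 and 68.9 CPM). Unlike the others, they were higher in *Maf*-negative LSECs (143 and 77.1 CPM) than in control LSECs.

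**Figure D4:**
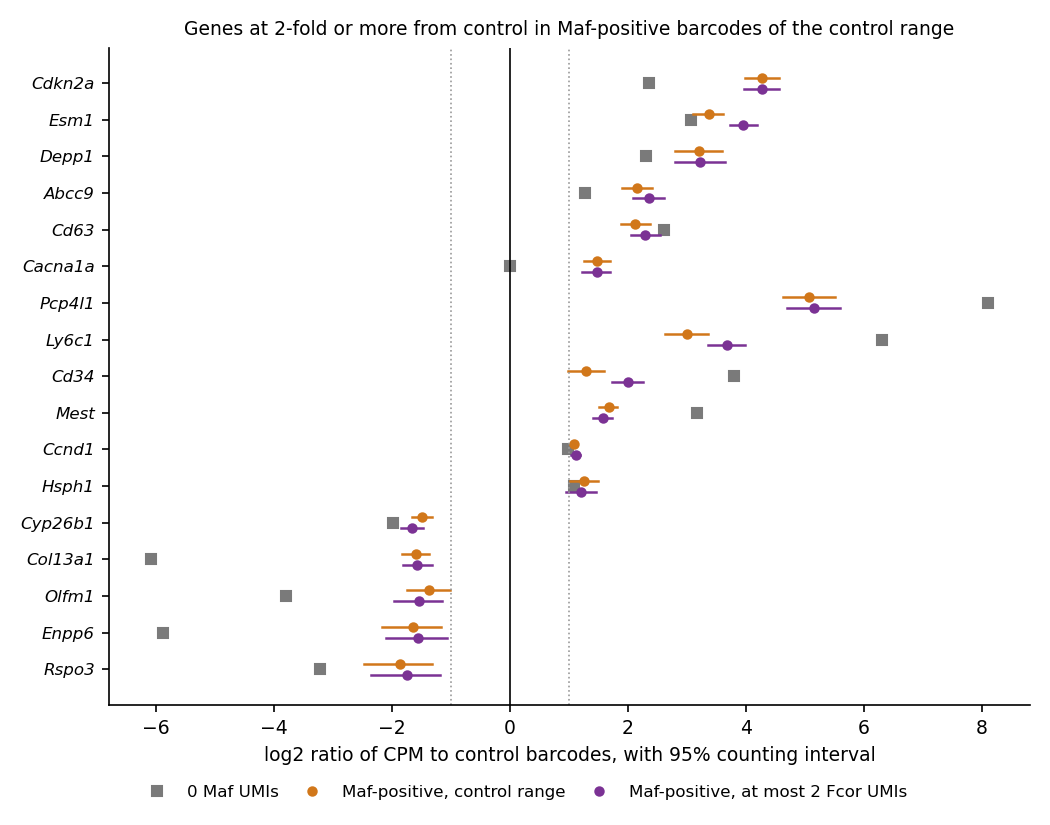
Log2 ratio of CPM to control LSECs (x axis, with 95% counting intervals) of 17 genes in 149 *Maf*-positive LSECs of the control range, in 146 *Maf*-positive LSECs with at most 2 *Fcor* UMIs, and in *Maf*-negative LSECs (squares, without interval). Dotted lines mark 2-fold; for *Cdkn2a*, *Abcc9* and *Cacna1a* the *Maf*-positive points lie above the *Maf*-negative squares, and for *Pcp4l1*, *Ly6c1* and *Cd34* below them.

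A few genes lay beyond both comparison groups. *Cdkn2a* was at 110 CPM (96.7 to 126) in all 199 *Maf*-positive LSECs, above 35.1 in *Maf*-negative and 6.79 in control LSECs. It was found in 93 of the 199, with 0 to 10 UMIs per barcode. Its log2 ratio to *Maf*-negative LSECs was 1.65, and 2.54 with cycling barcodes left out. At 2700 UMIs per barcode, 37 of 185 *Maf*-positive barcodes held a *Cdkn2a* UMI, against 5.12% of *Maf*-negative and 1.44% of control barcodes. In 1 of 15 leukocyte barcodes (6.67%, 0.169 to 31.9) a UMI was found, and that interval includes the share of the *Maf*-positive barcodes. Without lymphatic markers, 8 genes were at least 2-fold above both groups, and in 4 of them, *Cp*, *Spp1*, *C1qa* and *Apoc1*, a single barcode held between 38.2% and 98.6% of the UMIs. The other 4 were *Cdkn2a*, *Abcc9* (122 CPM), *Cacna1a* (118 CPM) and *Hmox1* (82.0 CPM, 20.2% in 1 barcode), which encodes heme oxygenase 1. In all 199, *Abcc9* was at a log2 ratio of 0.95 to *Maf*-negative and *Hmox1* at 0.96 to control LSECs, so neither passed 2-fold from both groups there. The kinase gene *Pim1* was below both groups, at 33.5 CPM against 77.1 in *Maf*-negative and 68.9 in control LSECs (log2 ratio −1.20 and −1.04), and was found in 38 of the 199. Its ratio to control was −0.99 without the lymphatic-marker barcodes, and at a minimum of 2 *Maf* UMIs its ratios were −0.39 and −0.23.

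*Fcor*, which lies 34702 bases from *Clec4g*, split the *Maf*-positive LSECs. It was chosen for description after its values were seen. *Fcor* encodes a corepressor of *Foxo1* and lies on chr8:3671188-3672362, and *Trappc5*, for a subunit of a vesicle tethering complex, on chr8:3676299-3681255, 25809 bases from *Clec4g* on chr8:3707064-3720651 (mm10). *Maf* is on the same chromosome at chr8:115682942-115707794. *Fcor* was at 361 CPM in *Maf*-positive, 942 in *Maf*-negative and 3.98 in control LSECs, and *Trappc5* at 333, 803 and 87.1. *Pet100*, 81216 bases from *Clec4g*, did not share this pattern (112, 114 and 112 CPM). The level was not limited to endothelial barcodes, since 137 barcodes of the *Maf* LSEC-KO library with *Ptprc*, a leukocyte gene, were at 228 CPM of *Fcor* and 615 of *Trappc5*, against 0 UMIs and 39.8 CPM in 59 such control barcodes. *Clec4g* itself was at 118 and 135 CPM in these barcodes.

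Among barcodes of at least 10000 UMIs, 38 of 1524 *Maf*-negative LSECs (2.49%) and 1543 of 1616 control LSECs (95.5%) had no *Fcor* UMI. Of 91 *Maf*-positive LSECs of that depth without lymphatic markers, 38 (41.8%) had none, 18 had 1 or 2 and 35 (38.5%) had 3 or more, while 1385 *Maf*-negative LSECs (90.9%) and no control LSEC had 3 or more. Barcodes with *Ptprc* in the *Maf* LSEC-KO library held both kinds too. Of 22 of that depth, 7 (31.8%) had none, 4 had 1 or 2 and 11 (50%) had 3 or more. *Maf*-positive LSECs without *Fcor* were found in all 3 classes, namely 32 of 60 in the control range, 2 of 15 between the limits and 4 of 16 in the *Maf*-negative range. The part of the iCre transgene in these values was not tested.

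**Figure D5:**
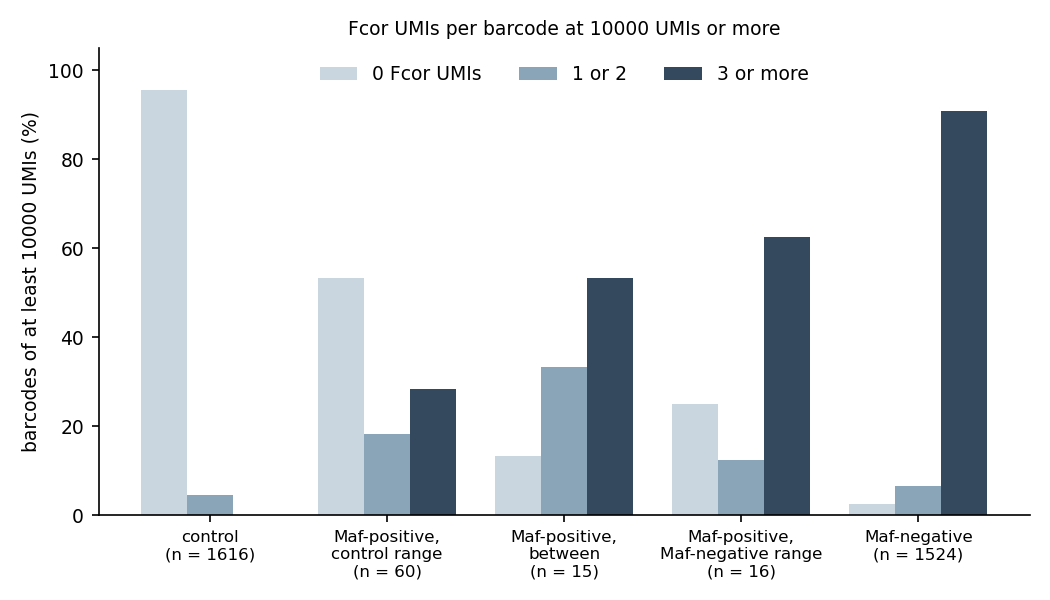
Percentage of barcodes of at least 10000 UMIs (y axis) with 0, with 1 or 2 and with 3 or more *Fcor* UMIs in control LSECs, the 3 classes of *Maf*-positive LSECs and *Maf*-negative LSECs, with the number of barcodes under each group. Control LSECs are nearly all at 0 and *Maf*-negative LSECs nearly all at 3 or more, and *Maf*-positive LSECs hold both kinds.

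*Maf*-positive LSECs with few *Fcor* UMIs were nearer to control. Across all depths, 146 of the 190 had at most 2 *Fcor* UMIs and 44 had 3 or more, with median depths of 8404 and 17142 UMIs. The control range held 124 of the 146 and 25 of the 44, and the median control-high share was 67.2% and 57.9%. The median was 17 and 18 *Maf* UMIs. At these depths similar counts stand for a lower *Maf* level in the deeper group, so the groups were not matched for *Maf*. *Fcor* and *Trappc5* are among the 409 *Maf*-negative-high genes, so the split by *Fcor* fixes a part of this difference. Without both genes the median shares were 67.2% and 58.2%, and the control range held 124 and 26. *Dnase1l3* was at 2454 and 1373 CPM, *Fcgr2b* at 1932 and 852, and *Cd34* at 116 and 252. Markers of other cell types moved with this split, since cholangiocyte markers were at 10.1 and 1104 CPM, hepatocyte markers at 151 and 320, large-vessel markers at 457 and 1045 and macrophage markers at 310 and 90.5. In the 177 barcodes without such markers, 140 had few *Fcor* UMIs and 37 had 3 or more, the median shares were 67.3% and 62.7%, and the control range held 120 and 24. There *Dnase1l3* was at 2486 and 1713 CPM, *Fcgr2b* at 1978 and 1052, and *Cd34* at 107 and 185. The barcodes with few *Fcor* UMIs were not the same as control LSECs, since 51 of 4196 genes were at least 2-fold higher (1.22%) and 24 lower (0.572%), with *Cdkn2a* at a log2 ratio of 4.27 (3.97 to 4.57) and *Esm1* of 3.96. Barcodes with high Scrublet scores were 6 of the 146 and 9 of the 44, and their part in the difference was not tested.

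The groups also differed in Y-linked transcripts. Of barcodes with at least 10000 UMIs, 9.18% (4.29 to 16.7) of 98 *Maf*-positive, 37.3% (34.9 to 39.8) of 1524 *Maf*-negative and 14.8% (13.1 to 16.6) of 1616 control LSECs held no UMI of *Ddx3y*, *Uty*, *Kdm5d* or *Eif2s3y*. With these barcodes thinned to 10000 UMIs the shares were 14.3%, 49.2% and 20.5%. *Ddx3y*, which encodes an RNA helicase, was at 127, 65.1 and 125 CPM. *Maf*-positive LSECs were nearer to control than to *Maf*-negative LSECs of their own library in this measure too. *Xist*, the transcript of the inactive X chromosome, was found in 1 *Maf*-positive, 7 *Maf*-negative and 3 control LSECs, 1 or 2 UMIs each. As 3 mice were pooled, the share of each mouse in the groups was not tested.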

How the data were processed

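The data are 3′ scRNA-seq of LSECs, with 1 library of 3 pooled mice for each genotype. The authors aligned reads to mm10 and counted UMIs with Cell Ranger 6.0.2. The deposited values are raw UMI counts of 32285 features, and Seurat 5.0.1 is named in the submitters' processing notes. No deposited normalization was used. The members and gene lists were chosen with earlier results of these data known.

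Counts were summed over barcodes and divided by UMIs outside mitochondrial and ribosomal protein genes. Genes of at least 50 CPM in either group were counted past 2-fold, without *Maf*, the gate genes, and mitochondrial and ribosomal protein genes. With 1 library per condition no p-value was computed. Intervals are exact at the 95% level. A count of 0 was limited by 3 counts. Lymphatic-marker barcodes held at least 3 UMIs of *Mmrn1*, *Ccl21a* and *Pdpn*. Barcodes were thinned at random to 2700 UMIs. The automatic Scrublet limit marked 0 barcodes in both libraries, so the highest scores were taken at the expected rates of 4.53% and 5.67%. Genes named were those of the fixed lists, the 15 highest and 15 lowest ratios of each comparison, and, for groups within the *Maf*-positive LSECs and near *Clec4g*, genes chosen after their values were seen. The classes by control-high share, the lymphatic-marker group and the *Fcor* groups were likewise defined after the data were seen. Symbols given to 2 identifiers numbered 40. On simulated counts for 4253 genes, 198 of 200 genes changed on purpose passed 2-fold in the right direction, 0 unchanged genes did, and 95.3% of intervals held the true ratio. These counts were drawn from the Poisson distribution around *Maf*-negative levels, with planted changes larger than 2-fold. The simulation therefore checked the computation only. It cannot show how the intervals hold for genes whose UMIs sit in single barcodes. Gene positions are from GENCODE on GRCm38. Python 3.11.15, numpy 2.4.6, scipy 1.17.1, pandas 2.3.3, scanpy 1.11.5 (Scrublet) and matplotlib 3.10.9 were used. Alternatives covered the scaling, depth, the *Maf* minimum, doublets, other cell types, mitochondrial UMIs, cycling and shared barcodes, *Vwf*, the level minimum and the fold. The effect of 1 set of markers of other cell types and the values of 1 gene are not reported here.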

Additional observations from a re-analysis of the deposited data

How the results depend on the processing

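Each condition was 1 library, so depth limits precision only through counting error, and the spread between mice is unknown. No paired analysis was possible because each group had 1 sample. The alternatives that left out lymphatic-marker barcodes, barcodes with other or large-vessel markers or the deepest barcode, and the one that took control barcodes of at least 5 *Maf* UMIs, were chosen after seeing the data. The number of *Maf*-positive LSECs was 323 at a minimum of 2 *Maf* UMIs, 154 at 10 and 82 at 20, and 104 when barcodes were thinned before the minimum was applied. Against *Maf*-negative LSECs, 92 genes were at least 2-fold higher and 32 lower at a minimum of 2 *Maf* UMIs, 322 and 335 at a level of 20 CPM, 1157 and 1801 with 10 UMIs and no CPM minimum, and 465 and 578 at 1.5-fold. The lower genes numbered 73 with the UMIs of all genes as divisor, 227 after thinning, 231 without barcodes of lymphatic, large-vessel or non-endothelial markers and 80 with the whole interval past 2-fold. Against control LSECs, 180 were higher and 85 lower at 2 *Maf* UMIs, 1348 and 1043 with 10 UMIs, 246 and 95 at 1.5-fold, 47 and 44 with median-of-ratios factors, 212 higher at 20 CPM and 43 higher without barcodes of lymphatic, large-vessel or non-endothelial markers. The lower genes numbered 41 after thinning and 16 with the whole interval past 2-fold. Median-of-ratios factors moved the median of all genes from 0.07 to −0.08, and the share of higher among all genes past 2-fold from 74.5% to 51.6% (61.3% with all UMIs as divisor). Against *Maf*-negative LSECs, all UMIs as divisor moved that share from 54.2% to 74.4%. The other 69 values of these counts stayed within 1.5 times, or within the counting interval for the number of LSECs.

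Of 3515 values of the log2 ratio of 98 named genes under 18 alternatives, 2674 stayed within the counting interval, 815 lay outside it and 26 changed sign for a gene past 2-fold. Marker barcodes were left out of the *Maf*-positive group only, while the comparison groups kept theirs. Lower ratios of the marker genes themselves, such as *Spp1* and *Prox1*, therefore follow from that choice. Without *Maf*-positive barcodes that carried lymphatic markers or markers of non-endothelial cells, the log2 ratio to *Maf*-negative LSECs was −0.22 for the median of the lymphatic markers, −3.78 for *Cp*, −1.14 for *Prox1*, −4.14 for *Spp1* and −0.077 for *Apoc1*. That to control was −2.16 for *Cp*, −0.73 for *Prox1*, −2.29 for *Spp1* and −0.19 for *Apoc1*. With large-vessel markers left out too, the ratio to *Maf*-negative LSECs was −0.032 for the median of the lymphatic markers, −3.60 for *Cp*, −1.44 for *Prox1*, −3.95 for *Spp1* and −1.48 for *Igfbp5*, and that to control −1.97 for *Cp*, −1.02 for *Prox1*, −2.10 for *Spp1*, −0.086 for *Apoc1* and −0.64 for *Igfbp5*. Without lymphatic-marker barcodes, *Prss23* was at −0.40 to *Maf*-negative and *Sema3d* at −0.041 to control LSECs. *Spp1* was at −0.35 to *Maf*-negative LSECs as a mean over barcodes and −0.38 after thinning. It was at −3.91 and −2.29 (to control) without the highest Scrublet scores. After thinning, the erythroid median to control could not be computed. With *Vwf* barcodes kept, *Rspo3* was at −0.63 to *Maf*-negative LSECs. At a minimum of 2 *Maf* UMIs, *Hbb-bs* was at 6.92 and 1.29, and the median of the erythroid genes to control was 0.94. The cause of these changes was not tested, except that single barcodes or the lymphatic-marker barcodes held most UMIs of *Cp*, *Spp1*, *Prox1*, *Prss23* and *Sema3d*.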
